A study of Mus musculus with 2254 samples.

Results

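The four-and-a-half LIM domain genes Fhl1, Fhl2, Fhl3 and Fhl5 were followed across the cells of the mouse brain vasculature. The 4 genes were taken by symbol out of 30950 rows of the count table. They were selected on measured values of these same cells: Fhl2 for its large difference between Notch3 KO and Notch3 WT smooth muscle cells, and Fhl5 for its presence in only some smooth muscle cells. Those patterns are therefore described here and not tested. The cells came from brains of adult C57BL/6 mice that all carried SM22-Cre and Rosa26-stop-tdTomato, in which the promoter of the smooth muscle gene SM22 (Tagln) drives Cre and Cre switches on a red fluorescent protein. The Notch3 KO group held 1127 cells on plates 043, 467 and 471, and the Notch3 WT group held 1127 cells on plates 044, 468 and 469. Cells were sorted by fluorescence into 384-well plates and sequenced with Smart-seq2, a plate method that reads whole polyadenylated transcripts. The labels named neither the Notch3 allele, the sex, the sort gate nor the animal behind a cell, so each genotype counts as 1 sample, plates are not animals, and no test between genotypes was possible.

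FHL proteins are built from LIM domains, pairs of zinc fingers that bind other proteins. They sit on actin filaments and focal adhesions and also enter the nucleus, where they act as cofactors of transcription factors. FHL1 is abundant in striated muscle and is mutated in human myopathies. FHL2 is best known from the heart and binds integrins, beta-catenin and serum response factor (SRF), the main transcription factor of contractile genes. FHL3 is known from skeletal muscle, and FHL5, also called ACT, activates the CREM and CREB factors in the testis. Notch3 is a receptor of vascular smooth muscle cells and pericytes, and it signals through the DNA-binding protein RBPJ.

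All 4 genes were matched in the GENCODE M21 annotation of GRCm38, and no other gene's exons overlapped theirs. Fhl1 lies on chromosome X from 56731787 to 56793346 on the plus strand, with 3714 bases of exon. Fhl2 is a minus-strand gene of chromosome 1, between 43123074 and 43196984, with 1897 bases of exon. Fhl3 and Fhl5 both lie on chromosome 4, Fhl3 from 124700701 to 124708611 on the plus strand with 1683 bases of exon and Fhl5 between 25199908 and 25242876, minus strand, with 1171 bases of exon. The counts were summed over each gene, so they do not tell its start sites apart.

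Promoters of Fhl2 and Fhl1, higher on average in KO smooth muscle cells, and of Fhl5, which was not, were chosen to be shown. The KO and WT plates of Fhl1 overlapped. Of Fhl1 and Fhl5 only the upstream promoter is printed. Each runs from 250 bases before to 50 bases after a start site (RefSeq, GRCm38.p6), and 7 promoters were found for the 4 genes. Capitals mark matches, on either strand, to the CArG box, the element that SRF recognises, and to TGGGAA, the core recognised by RBPJ, which reads TTCCCA on the other strand. No match overlapped another.
Fhl2 upstream start, chr1:43196712-43197011, minus strand: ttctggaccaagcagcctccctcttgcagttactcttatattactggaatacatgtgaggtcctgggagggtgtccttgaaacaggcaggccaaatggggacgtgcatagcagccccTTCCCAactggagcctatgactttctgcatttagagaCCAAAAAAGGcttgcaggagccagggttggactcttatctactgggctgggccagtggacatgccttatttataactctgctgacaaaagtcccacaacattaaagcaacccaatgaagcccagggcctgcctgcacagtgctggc
Fhl2 downstream start, chr1:43163912-43164211, minus strand: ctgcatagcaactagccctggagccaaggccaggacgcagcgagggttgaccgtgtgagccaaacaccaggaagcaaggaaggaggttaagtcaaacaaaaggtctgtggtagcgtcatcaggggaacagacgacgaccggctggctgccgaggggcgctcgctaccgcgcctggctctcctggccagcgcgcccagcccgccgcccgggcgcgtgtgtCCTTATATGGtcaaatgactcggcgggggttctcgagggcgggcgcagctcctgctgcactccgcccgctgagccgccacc
Fhl1 upstream start, chrX:56779433-56779732, plus strand: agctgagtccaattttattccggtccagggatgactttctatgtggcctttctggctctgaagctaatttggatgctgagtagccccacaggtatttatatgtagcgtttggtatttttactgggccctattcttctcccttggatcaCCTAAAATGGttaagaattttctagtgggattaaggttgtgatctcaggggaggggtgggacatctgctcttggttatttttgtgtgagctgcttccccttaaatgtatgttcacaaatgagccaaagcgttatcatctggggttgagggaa
Fhl5 upstream start, chr4:25242803-25243102, minus strand: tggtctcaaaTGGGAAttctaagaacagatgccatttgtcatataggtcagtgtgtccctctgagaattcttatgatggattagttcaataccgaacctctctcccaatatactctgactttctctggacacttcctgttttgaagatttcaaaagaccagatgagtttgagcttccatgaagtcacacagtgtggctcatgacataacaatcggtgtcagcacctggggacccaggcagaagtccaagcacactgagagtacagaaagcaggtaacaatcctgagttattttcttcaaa
A CArG box was present in both Fhl2 promoters and in the upstream Fhl1 promoter, and in 1.63% of 32851 promoters of the same length. It began at position -31 from the downstream Fhl2 start, at -96 from the upstream Fhl2 start and at -102 from the upstream Fhl1 start. TGGGAA was present in 25.6% of promoters, among them the upstream Fhl2 and Fhl5 promoters and the downstream Fhl1 promoter. The downstream Fhl1 promoter, not printed, had no CArG box and 2 TGGGAA matches. The Fhl3 promoter and the downstream Fhl5 promoter, also not printed, held neither. A match describes the letters in a window and not binding.

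Counts per cell ranged from 49473 to 763059 over the 2254 cells, and the plates' medians ran from 250834 to 358168. A total of 2252 cells passed a minimum of 50000 counts and 1000 genes, with 1126 in each genotype. Cells were placed in classes by marker genes at 100 CPM or more, CPM being a cell's reads of a gene scaled to a common library total. Smooth muscle-like cells had Myh11, the smooth muscle myosin, without Cldn5, Dcn or Ccdc153, and all 9 smooth muscle markers were found in at least 25% of them. They numbered 749 in KO and 434 in WT, but only 39 and 61 of the WT cells came from plates 468 and 469. Other classes were unevenly filled, with 127 KO and 47 WT fibroblast-like cells, 160 and 42 ependymal-like cells, 10 and 173 endothelial-like cells, and 3 and 245 astrocyte-like cells. Pericyte-like cells were too few to compare, at 4 in KO and 9 in WT. Notch3 checked the labels: in smooth muscle-like cells it was at 76.3, 108 and 111 CPM on KO plates 043, 467 and 471, against 228, 656 and 1114 CPM on WT plates 044, 468 and 469. The groups did not overlap, reads of Notch3 remained in 74.1% of KO cells, and WT plate 044 stood well below the other WT plates. An annotated gene, Gm17276, overlaps Notch3 exons.

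Fhl2 was the member that separated the genotypes in smooth muscle-like cells. Summed per plate, it reached 105, 89.5 and 63.3 CPM on KO plates 043, 467 and 471, against 5.61, 15.8 and 0.0420 CPM on WT plates 044, 468 and 469. Every KO plate lay above every WT plate, as for 3.99% of measured genes, and the plates averaged 85.8 ± 20.9 CPM for KO and 7.15 ± 7.99 CPM for WT (SD over 3 plates each). The difference in mean log2(CPM + 1) was 4.13, the fourth highest of 9638 measured genes. It was 4.00 between plates 043 and 044 and 4.19 between the other 4 plates. This grouping was made from the plate numbers alone. A gene was counted as different when it had at least 10 CPM and a read in 10% of cells in a genotype, a difference of 2-fold or more, and KO and WT plates that did not overlap. Fhl2 met this rule, as did 1.48% of measured genes in the higher direction, and since the gene was chosen for this contrast nothing further is read from it. The WT level rested on few cells: 15 of 434 WT cells had any read, and a single cell carried the value of plate 468. Without WT plate 468 the difference was 5.02 and without WT plate 469 it was 3.01.

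**Figure D1:**
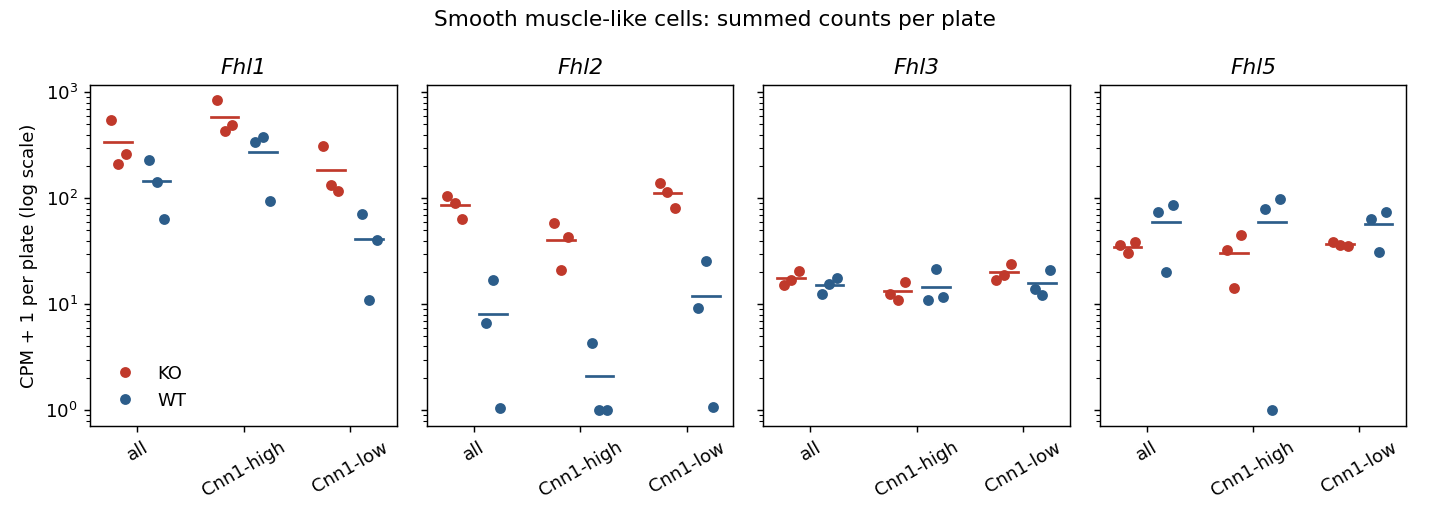
CPM + 1 of Fhl1, Fhl2, Fhl3 and Fhl5 (log axis) in all smooth muscle-like cells and in their Cnn1-high and Cnn1-low parts. Each point is the summed counts of 1 plate, KO left of WT, and each line is the mean of 3 plates. Fhl2 lies between 63.3 and 105 CPM on KO plates and at or below 15.8 CPM on WT plates, while Fhl3 points of both genotypes lie together.

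Fhl2 was present in a minority of KO smooth muscle-like cells and rare in WT ones. Of 749 KO cells 26.6% had a read (exact 95% interval 23.4 to 29.9%), and of 434 WT cells 3.46% had one (1.95 to 5.64%). At 10 CPM or more in the cell it was held by 76 of 262, 40 of 208 and 49 of 279 cells on KO plates 043, 467 and 471, against 9 of 334, 1 of 39 and 0 of 61 cells on WT plates 044, 468 and 469. The last allows a share of up to 4.92%. These intervals and limits cover counting error only, because cells of a plate are not independent and reads carried no molecular identifiers. Thinned to 50000 counts per cell, the expected shares were 22.5% in KO and 2.48% in WT, and the median totals were 288752 and 288145 counts. The KO cells that held Fhl2 had a median of 347 CPM, and the 10 KO cells with the most reads carried 17.6% of the Fhl2 reads.

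Of the 320 KO cells with at least 10 CPM of Fhl2, 165 were smooth muscle-like and 110 were fibroblast-like. Of the 62 WT cells at that level, 10 were smooth muscle-like and 34 were fibroblast-like. Fibroblast-like cells, marked by decorin (Dcn), were therefore the class where Fhl2 was common in both genotypes, in 110 of 127 KO cells and 34 of 47 WT cells. Cells with markers of 2 classes also held it: 12 of 16 KO cells with both Myh11 and Dcn, 6 of 6 KO cells with Rgs5 and Dcn but no Myh11, and 9 of 40 KO cells with Myh11 and Cldn5. In WT the first kind was 1 cell, the second was absent, and 0 of 15 cells of the third held Fhl2. Among pericyte-like cells, 3 of 4 KO cells and 1 of 9 WT cells held it.

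**Figure D2:**
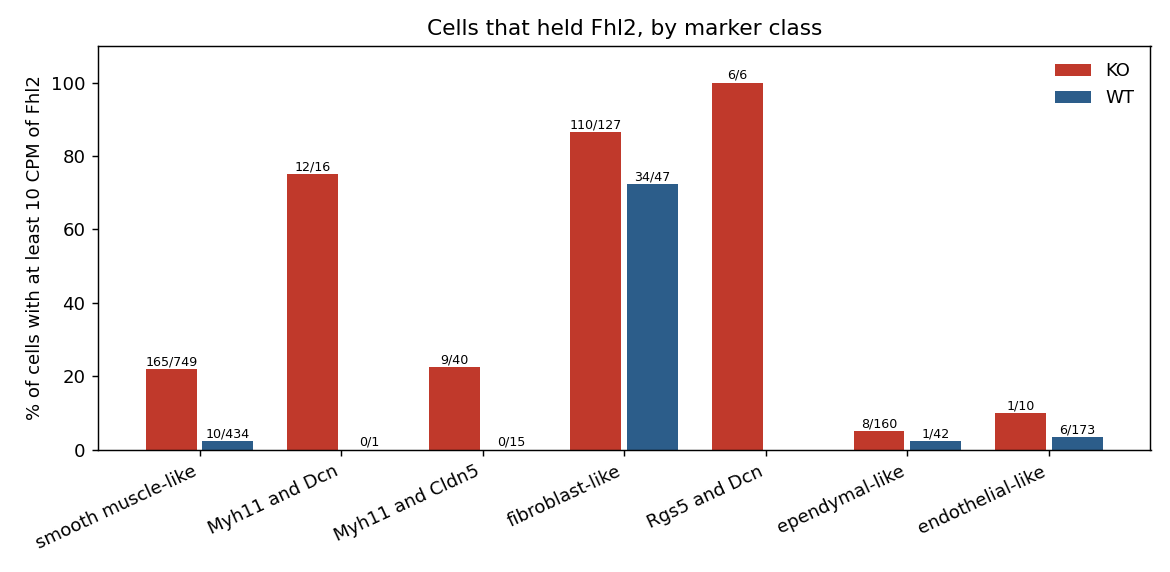
Percent of cells of each marker class with at least 10 CPM of Fhl2, KO left of WT, with the number of such cells and of all cells above each bar. The bar of smooth muscle-like cells is at 22.0% in KO and 2.30% in WT, while fibroblast-like cells are at 86.6% and 72.3%.

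The summed level of fibroblast markers differed by genotype in smooth muscle-like cells and is given beside the Fhl2 values. Over all 7 markers it lay between 600 and 853 CPM for KO plates, against 300 to 422 CPM for WT plates. Dcn, Lum, Col1a1 and Pdgfra each reached at most 5.88 CPM on a plate, and their KO and WT ranges overlapped. Nearly all of the sum therefore lay in Col1a2, Col3a1 and Slc6a13, whose single levels are not given here, and it does not describe the whole list. The defining fibroblast gene Dcn says nothing further here, because the class left out every cell with 100 CPM or more of it. It was between 0.819 and 3.96 CPM for KO plates and between 0.785 and 1.46 CPM for WT plates. In cells without a read of Dcn or Lum, Fhl2 was present at 78.6 CPM in 476 KO cells and 3.71 CPM in 327 WT cells, pooled over plates. The sum of 8 pericyte markers was also higher in KO, at 5073 to 5885 CPM, against 4003 to 5007 CPM in WT. Single pericyte genes overlapped: Rgs5 was at 2456 to 3088 CPM in KO and 1945 to 2694 CPM in WT. Kcnj8 was at 67.5 to 111 CPM in KO and 24.2 to 147 CPM in WT. This sum does not describe its whole list either, and the part of the fibroblast and pericyte markers in the Fhl2 difference was not tested. WT plate 468 stood apart in astrocyte markers, at 1241 CPM over 7 genes, against 29.5 to 90.2 CPM on the other plates.

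Within the KO smooth muscle-like cells, Fhl2 lay more in cells with low calponin (Cnn1), a contractile protein more abundant in arterial smooth muscle. In Cnn1-high KO cells it was at 57.5, 20.2 and 42.1 CPM on plates 043, 467 and 471, against 140, 114 and 80.0 CPM in Cnn1-low KO cells of the same plates. All 6 plates had less Fhl2 in Cnn1-high cells, with a mean log2 difference of -1.75 ± 1.63 (SD over 6 plates), and 6.29% of 10610 measured genes were lower on all 6 plates. On WT plates 468 and 469 the direction rested on 1 Cnn1-low cell with a read each, with differences of -4.69 and -0.095, and leaving out plate 468 moved the mean to -1.16. The genotype difference was present in both parts, at a log2 difference of 4.53 in Cnn1-high cells and 4.12 in Cnn1-low cells. WT plates 468 and 469 had no Fhl2 read in Cnn1-high cells, and all of these values depend on the pseudocount of 1 CPM. With pseudocounts of 0.1 and 5 CPM the difference was 6.81 and 2.82 in Cnn1-high cells, 5.06 and 3.18 in Cnn1-low cells and 5.17 and 3.10 in the whole class, and Fhl2 met the rule each time. Without WT plate 044 it was 5.23 in Cnn1-high cells, and in Cnn1-low cells it was 5.13 without WT plate 468 and 2.83 without WT plate 469.

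Among KO Cnn1-low cells the share with Fhl2 was larger where the pericyte gene Rgs5 was higher. It was 16.0% of 75 cells under 1000 CPM of Rgs5, 24.6% of 138 cells from 1000 to 3000 CPM, 25.7% of 140 cells from 3000 to 6000 CPM and 34.7% of 118 cells at 6000 CPM or more. The order was not the same on each plate, and on plate 043 the first range held 38.9% against 39.7% in the last. Cells with 100 CPM or more of Kcnj8, a potassium channel gene of pericytes, held Fhl2 in 36.2% of 105 KO cells, and those below in 23.2% of 366 KO cells. Both ranges were set after the data were seen. When the cells were clustered without the FHL genes and Notch3, 1 cluster of 31 KO cells and 1 WT cell was led by Col3a1, Kcnj8 and Rgs5 and had Fhl2 in 90.3% of its KO cells, at 615 CPM. The same KO cells had 1389 CPM of Fhl1 and 64.1 CPM of Fhl5. They also carried the fibroblast gene Dcn, at 462 CPM and with 10 CPM or more in 64.5% of them. By the marker classes, 14 of the 32 cells were smooth muscle-like, 11 had Myh11 and Dcn, 6 had Rgs5 and Dcn and 1 was pericyte-like. The part of the fibroblast genes in the Fhl2 level of this cluster was not tested.

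In fibroblast-like cells Fhl2 did not separate the genotypes. It was at 463, 412 and 325 CPM on KO plates 043, 467 and 471, against 372, 191 and 321 CPM on WT plates 044, 468 and 469. The ranges overlapped and the log2 difference was 0.48. On WT plates 468 and 469 it was at 14.5 and 6.97 CPM in endothelial-like cells, and 41 WT macrophage-like cells had no read. Pooled over plates, Fhl2 in KO was at 510 CPM in 4 pericyte-like cells, 489 CPM in 6 cells with Rgs5 and Dcn and 469 CPM in 16 cells with Myh11 and Dcn, beside 391 CPM in 127 fibroblast-like cells. The 9 WT pericyte-like cells had 16.8 CPM. In ependymal-like cells it was at 0.868, 18.7 and 0.0645 CPM on the KO plates in the same order, against 0, 0 and 2.94 CPM on the WT plates.

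Per kilobase of exon Fhl1 was the most abundant member in KO smooth muscle-like cells, and it was also higher there than in WT. It was at 546, 212 and 264 CPM on KO plates 043, 467 and 471, against 230, 141 and 62.3 CPM on WT plates 044, 468 and 469. KO plate 467 fell just below WT plate 044, so the ranges overlapped and the gene missed the rule, with a log2 difference of 1.30. Leaving out either plate of this only overlapping pair ends the overlap by itself. The difference was then 1.58 without KO plate 467 and 1.73 without WT plate 044. With all plates Fhl1 met the rule without TMM scaling factors (1.27), with the mean of single-cell CPM (1.23) and with classes from clusters (1.23). It missed the rule with DESeq2 size factors (1.25). Fhl1 was detected in 68.0% of the KO cells and 52.8% of the WT cells. Split by Cnn1, the plates no longer overlapped. Cnn1-high cells had 839, 432 and 488 CPM on the KO plates, against 342, 377 and 94.3 CPM on the WT plates, a log2 difference of 1.28. Cnn1-low cells had 309, 132 and 118 CPM on the KO plates, against 70.7, 10.1 and 39.3 CPM on the WT plates, a log2 difference of 2.42. Fhl1 met the rule in both parts, as did 3.52% of genes in Cnn1-high cells and 2.71% in Cnn1-low cells in the higher direction. Without WT plate 469 the value in Cnn1-high cells was 0.64, and without KO plate 043 it was 0.99, and neither met the rule. In Cnn1-low cells it was 1.66 without WT plate 468 and 3.01 without WT plate 044. There it was 3.28 with classes from clusters and 3.38 without cells with second markers, and all of these met the rule. Clusters named smooth muscle-like held only 865 of the 1183 cells of the marker-based class, and 301 of them fell in unnamed clusters.

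Fhl1 followed Cnn1 in every plate. Cnn1-high cells exceeded Cnn1-low cells on 6 of 6 plates, by a mean log2 difference of 2.30 ± 1.42 (SD), and 7.11% of measured genes were higher on all 6 plates. The values ran from 1.24 on WT plate 469 to 5.09 on WT plate 468, where only 13 Cnn1-high cells were present. Of the smooth muscle-like cells, 278 of 749 in KO and 222 of 434 in WT were Cnn1-high. By plate these were 110 of 262, 56 of 208 and 112 of 279 cells on KO plates 043, 467 and 471. On WT plates 044, 468 and 469 they were 185 of 334, 13 of 39 and 24 of 61 cells, and only plate 044 had a share outside the KO range. The undivided class had a smaller Fhl1 difference than the mean of its parts, 1.30 against 1.85, and the part of this mix in it was not tested.

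**Figure D3:**
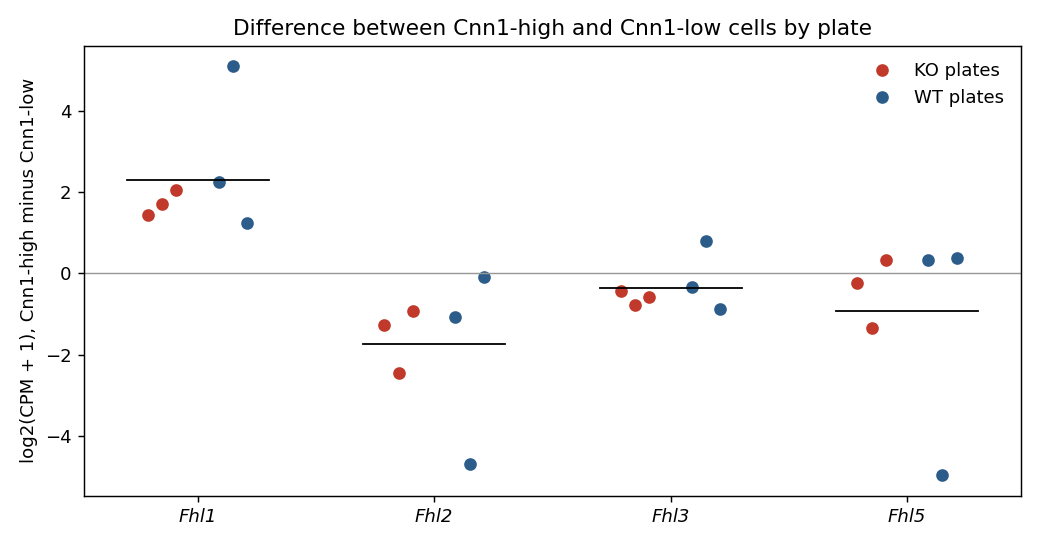
Difference in log2(CPM + 1) between Cnn1-high and Cnn1-low smooth muscle-like cells for each gene. Points are plates, KO left of WT, and the line is the mean over 6 plates. Fhl1 lies above 0 on 6 plates and Fhl2 below 0 on 6 plates, while Fhl5 and Fhl3 have plates on both sides.

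Among the classes with at least 10 cells on a plate, ependymal-like cells, the ciliated lining of the ventricles, had the highest Fhl1. It was at 1577, 1196 and 1254 CPM on KO plates 043, 467 and 471, against 1496, 1907 and 1440 CPM on WT plates 044, 468 and 469, and was read in 98.1% of KO and 97.6% of WT cells. The genotypes overlapped there. The 6 KO cells with Rgs5 and Dcn had 1882 CPM pooled over plates, beside 1288 CPM in the 160 KO ependymal-like cells. Among the classes filled only in WT, astrocyte-like cells had 134 and 139 CPM on plates 468 and 469, and endothelial-like and macrophage-like cells had at most 27.9 CPM on the same plates. Pooled with 7 cells of plate 044, the WT endothelial-like cells had 41.6 CPM. The 10 KO endothelial-like cells, too few for values per plate, had 322 CPM pooled, with a read in 7 of them. With classes from clusters, which moved 37 cells with Myh11 and Cldn5 into the endothelial-like class, its mean over plates was 155 CPM. In fibroblast-like cells Fhl1 was lower in KO, at 198, 107 and 200 CPM, against 265, 220 and 280 CPM in WT on the same order of plates. All KO plates lay below all WT plates, as for 3.59% of genes there, and the log2 difference of -0.64 stayed under 2-fold.

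**Figure D4:**
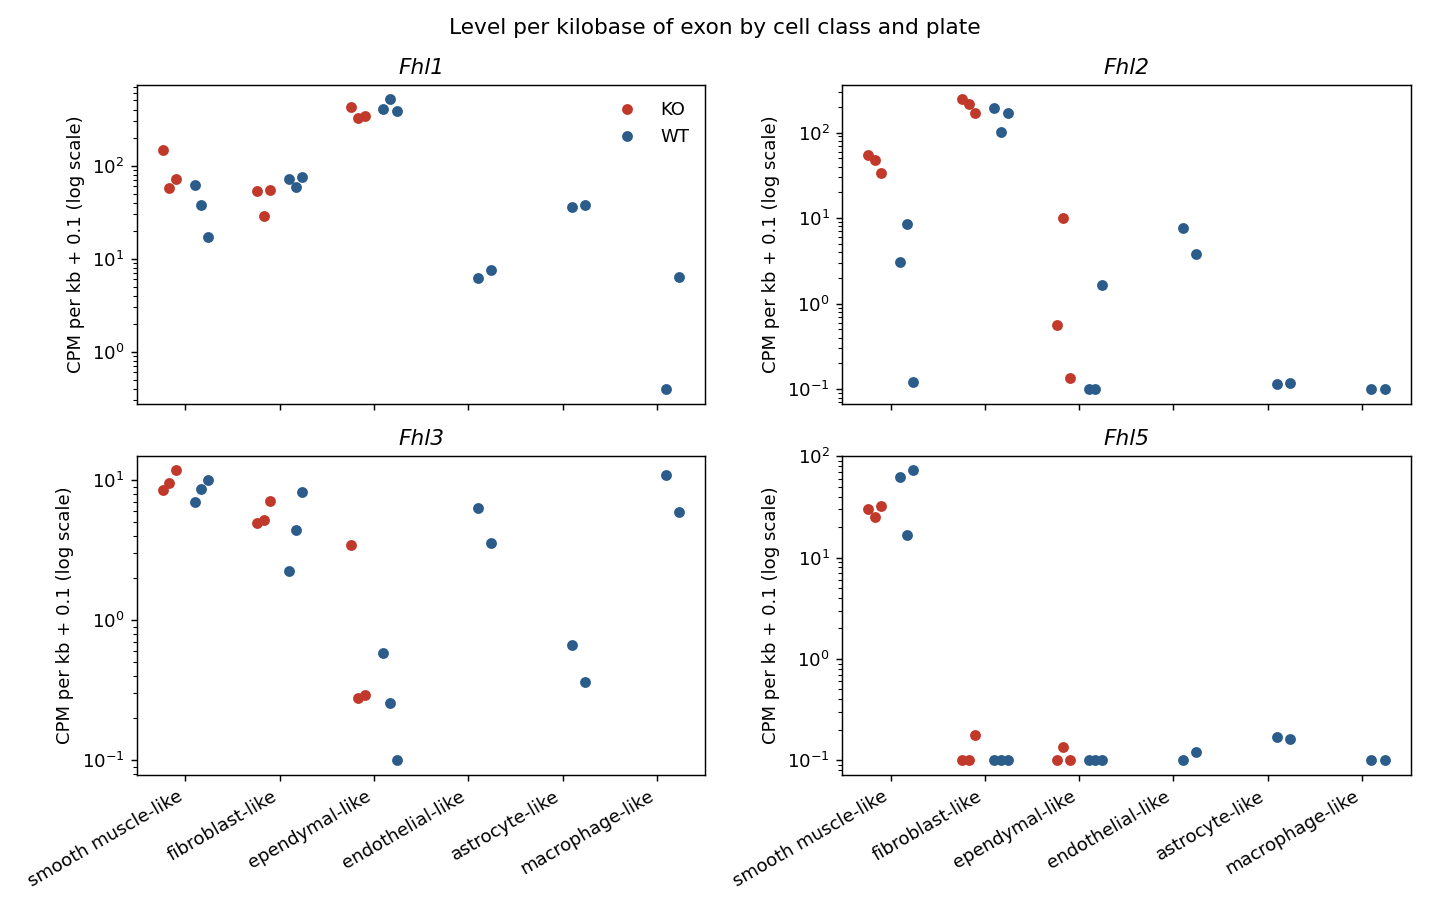
Level per kilobase of exon, plus 0.1, of each gene (log axes) by cell class. Points are plates, KO left of WT, and classes with fewer than 10 cells on a plate are absent from it, so endothelial-like, astrocyte-like and macrophage-like cells appear for WT plates 468 and 469 only. Among the classes drawn, Fhl1 is highest in ependymal-like cells, Fhl2 in fibroblast-like cells, and Fhl5 is above 1 CPM per kilobase only in smooth muscle-like cells.

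Fhl5 was found almost wholly in smooth muscle-like cells. Of the cells with at least 10 CPM, 195 of 207 in KO and 181 of 186 in WT were smooth muscle-like. The other 12 KO cells all carried Myh11 or Rgs5 together with Dcn or Cldn5, and of the other 5 WT cells 4 carried Myh11 and Cldn5 and 1 was astrocyte-like. None of 127 KO and 47 WT fibroblast-like cells, 160 KO and 42 WT ependymal-like cells or 173 WT endothelial-like cells reached that level. In WT endothelial-like cells this allows a share of up to 1.73%. None of the 4 KO and 9 WT pericyte-like cells reached it either, and these were too few to show absence.

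In smooth muscle-like cells Fhl5 was present in a minority of cells in both genotypes. It was at 35.2, 29.4 and 37.5 CPM on KO plates 043, 467 and 471, against 73.9, 19.3 and 84.9 CPM on WT plates 044, 468 and 469. The WT plates spanned the KO range, so the log2 difference of -0.54 lay within their spread. Pooled over plates, 28.6% of KO cells (25.4 to 32.0%) and 46.1% of WT cells (41.3 to 50.9%) had a read. That gap rested on WT plate 044, which held 334 of the 434 WT cells: the difference was -17.5 percentage points with it and 1.57 without it. Fhl5 did not follow the Cnn1 split, being higher in Cnn1-high cells on 3 of 6 plates, and 13 Cnn1-high cells of WT plate 468 had no read.

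Fhl5 did separate smooth muscle-like clusters made without it. A cluster of 66 KO and 9 WT cells, led by Myh11, Olfml2a and Rcan2, had it at 4.29 CPM in KO and 0.326 CPM in WT. In the other clusters named smooth muscle-like, Fhl5 ranged from 36.7 to 48.6 CPM for KO cells and from 39.7 to 76.2 CPM for WT cells. These ranges leave out an unnamed cluster of 208 KO and 102 WT cells with Rgs5 and Myh11 among its leading genes. Its KO cells lay below the KO range, at 25.3 CPM, while its WT cells lay within the WT range, at 59.2 CPM. Fhl1 in the cluster led by Myh11, Olfml2a and Rcan2 was at 686 CPM in KO and 395 CPM in WT. In KO smooth muscle-like cells Fhl5 and Fhl2 were held together at 10 CPM by 45 cells, which was 27.3% of the 165 Fhl2 cells and 23.1% of the 195 Fhl5 cells. Fhl1 was held by 55.8% of the Fhl2 cells and by 53.3% of all 749 cells.

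Fhl3 was low in smooth muscle-like cells of both genotypes. It was at 14.2, 15.9 and 19.6 CPM on KO plates 043, 467 and 471, against 11.5, 14.4 and 16.7 CPM on WT plates 044, 468 and 469, and the ranges overlapped with a log2 difference of 0.21. Its reads were spread differently by plate: 96.0% of all cells on plate 043 and 74.7% on plate 044 had a read, against 22.2 to 60.3% on the other plates. On plate 043 the ependymal-like cells had a read in 95.7% and 10 CPM in none, with a median of 2 reads. Only 10 of 20451 genes at or below its level were found in 90% of the cells of that plate. The share of cells with a Fhl3 read is therefore not compared between genotypes, and at 10 CPM or more it was held by 41.5% of smooth muscle-like KO cells and 32.3% of smooth muscle-like WT cells. By plate that share was 41.6, 37.0 and 44.8% on KO plates 043, 467 and 471, against 34.1, 17.9 and 31.1% on WT plates 044, 468 and 469. How many other genes differ so was not counted. On plates 043 and 044, 71.0 and 52.4% of smooth muscle-like cells had 1 to 3 Fhl3 reads, against 16.4 to 28.2% on the other plates. A cell of few counts reaches 10 CPM with such reads, so this share is not read as a genotype difference either. On plates 468 and 469, WT macrophage-like cells reached a similar level, at 18.1 and 9.79 CPM, and astrocyte-like cells had 0.958 and 0.444 CPM. In ependymal-like cells Fhl3 was at 5.58 CPM on plate 043 and at most 0.809 CPM on the other plates.

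Per kilobase of exon the order of the members in smooth muscle-like cells was not the same in the genotypes. In KO cells the mean levels were 91.7 for Fhl1, 45.2 for Fhl2, 29.1 for Fhl5 and 9.84 CPM per kilobase for Fhl3. In WT cells they were 50.7 for Fhl5, 38.8 for Fhl1, 8.45 for Fhl3 and 3.77 CPM per kilobase for Fhl2. The KO order held with no overlap of plates between neighbours, whereas the WT plates of Fhl5 and Fhl1 overlapped, as did those of Fhl3 and Fhl2. Fhl4, a testis gene in mice, was at most 8.83 CPM on any plate in smooth muscle-like cells, too low for the rule. A Fhl4 read was present in 13 of 160 KO and 2 of 42 WT ependymal-like cells.

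The genes most like each member over 24 sums of class and plate, from 6 classes, mostly followed the class where it was high. For Fhl1 they included Rarres2 and the ciliary transport genes Ift81 and Ift74 (Pearson r 0.95, 0.91 and 0.91). For Fhl2 they included the collagen VI genes Col6a1 and Col6a2 and the chemokine Ccl19 (r 0.94, 0.92 and 0.91). For Fhl5 they included the guanylate cyclase Gucy2g and the receptor Crhr2 (r 0.99 for both), and for Fhl3 Col14a1 and Arhgdia (r 0.91 for both). Sums of a plate share their libraries, and Fhl3 has a narrow range. Over 1183 single smooth muscle-like cells, Fhl1 ranked closest to the elastin gene Eln and to Cnn1 (Spearman rho 0.46 and 0.42), and the genes listed for Fhl2 included Ccl19 (rho 0.27). No gene exceeded 0.18 for Fhl3 or Fhl5 in these sparse counts.

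Genes related to the FHL proteins by family or function were compared in smooth muscle-like cells, where 1.48% of all measured genes were higher by the rule, 0.643% were lower, and the median log2 difference was 0.064. Of 36 measured LIM domain genes of the cytoskeleton 1 was higher and 0 were lower, with a median of 0.050. That gene was Lmcd1, a LIM cofactor, at 259, 129 and 181 CPM on KO plates 043, 467 and 471, against 126, 59.7 and 88.1 CPM on WT plates 044, 468 and 469. Of 31 SRF target genes 0 met the rule in either direction, with Acta2 at 5565 CPM in KO and 5122 CPM in WT and Myh11 at 3889 and 4127 CPM. The median of the SRF targets was 0.048. None of 14 SRF cofactors and regulators met the rule (median -0.0041), and none of 6 CREM and CREB genes did (median 0.21). Reported integrin, catenin and nuclear partners of FHL proteins had a positive difference in 14 of 17 genes, with a median of 0.27, where 5489 of all 9638 genes had one. The lists were also counted in other classes. In fibroblast-like cells 10 of 29 SRF targets were higher and 1 was lower, and 6 of 34 LIM domain genes were higher and 0 lower, where the shares of all genes were 4.78% and 2.1%. In ependymal-like cells 5 of 24 SRF targets and 7 of 32 LIM domain genes were higher, where the share of all genes was 5.16%. Several of the 9 smooth muscle markers are SRF targets. Their summed level was 1471 to 2079 CPM on KO plates against 312 to 1176 CPM on WT plates in fibroblast-like cells, and 1347 to 2298 CPM against 345 to 1593 CPM in ependymal-like cells. Its part in those counts was not tested.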

How the data were processed

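Smart-seq2 libraries of 2254 single cells were analysed. The deposited table gives whole-number counts for each gene symbol in each cell, and every column was used (0 left out). Per the submitters' processing notes, TopHat2 2.1.1, SAMtools 0.1.18 and featureCounts of Subread 1.4.6-p5 were used with GRCm38 (mm10). Annotation version and strand setting are not given in the sources used here.

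Members and gene lists were chosen with earlier results of these data known. Cells needed 50000 counts and 1000 genes. Classes came from marker genes at 100 CPM, and counts were summed per class and plate with at least 10 cells. Sums were scaled to CPM with TMM factors (edgeR 4.0.16, R 4.3.3) and compared as log2(CPM + 1). No count test was run, since the labels name no animal and each genotype is 1 sample. A SD over plates is a description. No doublet caller was run on sorted wells, and cells with second markers formed classes of their own. Clusters (leidenalg 0.10.2) were an alternative and left out Notch3 and the FHL genes. Named genes were the members, Fhl4, Notch3, the 5 closest genes by each measure of likeness, of which examples are given, and list members that met the size rule or had the highest CPM, and some results under this rule are not reported here. Intervals are exact (Clopper-Pearson) at 95%, and a count of 0 allows 3 cells. The size rule was tested on simulated counts. Alternatives covered scaling, pseudocount, cell filter, classes and each plate left out.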

Additional observations from a re-analysis of the deposited data

Results flagged for a closer look

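Fhl1 was higher in KO in both Cnn1 parts of the smooth muscle-like cells and lower in KO in fibroblast-like cells. In the undivided smooth muscle-like class the KO and WT plates overlapped. The KO minus WT log2 difference was 1.28 in Cnn1-high and 2.42 in Cnn1-low smooth muscle-like cells, with all KO plates above all WT plates. By the size rule 3.52% and 2.71% of genes were higher in these parts. In fibroblast-like cells it was -0.64, with all KO plates below all WT plates, as for 3.59% of genes there. How many genes separate in opposite directions in such classes was not counted. The difference between the classes was not tested, and the fibroblast-like class held 13 to 19 cells on each WT plate.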

How the results depend on the processing

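Fhl2 met the size rule in smooth muscle-like cells under all 20 alternatives to scaling, pseudocount, classes, filters and plates, with log2 differences from 3.01 to 5.42, and under all 18 in each Cnn1 part. Fhl1 met it in the whole class under 7 of 20 alternatives, in Cnn1-high cells under 16 of 18 and in Cnn1-low cells under 18 of 18. With 1 plate left out, the KO minus WT differences ran from 0.79 to 1.73 for Fhl1, 3.01 to 5.02 for Fhl2, 0.075 to 0.33 for Fhl3 and -1.20 to -0.16 for Fhl5. The Cnn1-high minus Cnn1-low differences ran from 1.74 to 2.51 for Fhl1, -2.08 to -1.16 for Fhl2, -0.60 to -0.26 for Fhl3 and -1.18 to -0.11 for Fhl5. Shares of cells differed by 17.9 to 26.5 percentage points for Fhl2 and -21.0 to 1.57 for Fhl5. In Cnn1-low cells alone Fhl1 was at 2.42, and in Cnn1-high cells alone Fhl3 was at -0.088 and Fhl5 at 0.47. Fhl3 was at 0.46 in cells without Dcn and Lum reads, an alternative chosen after seeing the data, as were gates at 50 and 200 CPM and the addition of cells with a second marker.

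The count of genes that met the rule was 143 higher and 62 lower. It was 90 higher with a pseudocount of 5, 242 higher with clusters, 297 higher and 153 lower within plates 043 and 044, 568 and 301 within the other plates, 470 and 165 with no filter on low values, and 107 lower in cells without Dcn and Lum reads. Leaving out a plate gave 149 to 608 higher and 78 to 290 lower, since fewer plates overlap less often. No paired analysis was possible because replicate numbers only name the cells and no test was made. Levels by class and differences in fibroblast-like and ependymal-like cells moved by more than the SD over plates in 10 cases and by less in 150. The 39 and 61 smooth muscle-like cells on WT plates 468 and 469 limit the WT values.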
